A study of Homo sapiens with 12 samples.

Results

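The genes described here are 9 genes of growth arrest, cell death and p53 feedback, most of them known targets of the tumour suppressor p53, namely CDKN1A, GADD45A, GADD45B, ZMAT3, TP53INP1, MDM2, PPM1D, BBC3 and PMAIP1. They were taken by gene symbol from the RNA-seq count table, which listed 54628 genes, and all 9 were among the 15492 genes with enough counts to be tested. The RNA came from HUDEP-2, an immortalised human erythroid precursor line that needs the receptor Kit for survival and growth. The 12 libraries fell into 4 groups of 3 replicates. Each group carried a lentiviral dCas9-KRAB repressor with a scrambled guide (sgControl) or with a guide to an element near EGR1 (sgEGR1). All cells were held for 5 h in a medium for which no growth factor, dexamethasone or doxycycline is listed, and for a further 1 h they received PBS or 50 ng/mL of SCF (stem cell factor), which binds Kit. The comparisons ask which of these genes respond to Kit within 1 h, and whether the response differs when the induction of EGR1 is targeted. The cells are 1 line, sorted in bulk for the reporter of the vector. The replicates are named biological in the study's methods, but no separate cultures are described, so p-values here measure only the spread between these libraries, which may be technical.

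p53 is a transcription factor that is kept low by MDM2 and accumulates when DNA is damaged or growth is disturbed. Its targets stop the cell cycle, alter RNA splicing, open the mitochondrial route to cell death, and in the case of MDM2 and PPM1D switch p53 off again. HUDEP-2 cells were immortalised with papillomavirus oncogenes under doxycycline control, one of which directs p53 to degradation. Some of the 9 genes, BBC3 among them, are also known targets of FOXO factors, which growth factor signalling holds in check, and GADD45B is best known as a target of NF-kB and other stress pathways. Kit signalling is known for supporting the survival and growth of erythroid precursors.

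Within 1 h of SCF, the death gene BBC3 fell 1.60-fold on average, with every SCF library of both guides below every PBS library, and PPM1D, the phosphatase that opposes p53, fell 1.17-fold. Replicate 1 stood apart from the other replicates, and in a fit with a term for it GADD45B and TP53INP1 also fell, while MDM2, PMAIP1 and ZMAT3 rose. Without that term edgeR called none of these 5 genes. CDKN1A and GADD45A did not pass the test in either fit, and no gene of the 9 differed between the guides past the threshold.

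Sequences around the start sites are shown first, for p53 and for factors that respond to growth factors. The RefSeq promoter table (GRCh38.p14) held 7 of the 9 genes, and GADD45A and TP53INP1 were not in it. The p53 consensus element, made of a pair of 10-base half-sites, was searched on both strands without a spacer, with its C and G core letters required and at most 2 mismatches elsewhere. Within 2500 bases of the start, 5 of the 7 genes held a match, against 4.05% of all 27305 promoters. Within the 300-base promoter itself, none of the 7 did, against 0.271%. The matches are shown 5′ to 3′ on the strand of the gene, with the core letters in capitals. Distances are from the start that the promoter table uses, which is not always the outer end of the RefSeq gene given below. The CDKN1A match spans the start of that gene, at 36676463. That of CDKN1A lies 2265 bases upstream on chr6:36676449-36676468 (hg38, plus strand), that of PMAIP1 lies 447 bases upstream on chr18:59899549-59899568 (plus strand), that of MDM2 lies 752 bases downstream on chr12:68808923-68808942 (plus strand), that of ZMAT3 lies 1603 bases downstream on chr3:179070188-179070207 (minus strand), and that of GADD45B lies 1895 bases downstream on chr19:2478021-2478040 (plus strand). Of these, the ZMAT3 sequence had 0 mismatches and the others had 2.
CDKN1A: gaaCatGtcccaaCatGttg
PMAIP1: gggCttGtttaccCaaGtct
MDM2: ggtCaaGttcagaCacGttc
ZMAT3: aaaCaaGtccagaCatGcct
GADD45B: agaCttGgttgaaCttGgtt

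Motifs of factors that respond to growth factors were searched on both strands of the 300-base promoters (250 bases before to 50 after the start). The AP-1 motif TGANTCA, which FOS and JUN proteins bind, was found in 1 of the 7 genes, BBC3, and in 7.76% of all promoters. The cAMP response element TGACGTCA was found in 1 of the 7, PPM1D, and in 1.98% of all promoters. The EGR motif GCGTGGG was found in 1 of the 7, ZMAT3, at a pair of positions, and in 6.74% of all promoters. The longer EGR motif GCGGGGGCG was found in 1 of the 7, GADD45B, and in 5.03% of all promoters. The E-box CACGTG was found in 2 of the 7, BBC3 and GADD45B, and in 7.44% of all promoters, and the GATA motif AGATAA was found in 0 of the 7 and in 10.5%. Windows of 30 bases from GRCh38.p14 are given for the AP-1, cAMP response and EGR matches, with the matched letters in capitals, on the strand of the gene. They lie at chr19:47232762-47232791 (BBC3, minus strand), chr17:60600121-60600150 (PPM1D, plus strand), chr3:179071983-179072012 and chr3:179071933-179071962 (ZMAT3, minus strand) and chr19:2475958-2475987 (GADD45B, plus strand). The BBC3 and ZMAT3 windows lie upstream of the start in the promoter table but inside the RefSeq gene spans given below. A match is a run of letters and not a bound site.
BBC3, AP-1: gcactggaaggTGAGTCActctggtgaggc
PPM1D, cAMP response: agagagccgagTGACGTCAgcgggggagaa
ZMAT3, EGR: tgcctttgttcCCCACGCcggcctaacccc
ZMAT3, EGR: agggcacctgaCCCACGCgccgcccgccgg
GADD45B, EGR: ccacgtggggCGCCCCCGCacgccgctcct

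Before the members, the libraries were checked. EGR1, the target of the sgEGR1 guide, was at 10.9, 5.99 and 7.45 CPM in sgControl PBS, at 207.5, 239.5 and 171.4 in sgControl SCF, at 2.04, 1.12 and 0.977 in sgEGR1 PBS, and at 40.4, 57.4 and 203.6 in sgEGR1 SCF (CPM, counts per megacount of library total, TMM-scaled). The library labelled sgEGR1 SCF replicate 3 therefore held as much EGR1 as the sgControl SCF libraries did. It is called the discordant library here, and main results that rest on it are also given without it or with each library left out. The guide that the study lists for EGR1 is ggatgacagcgatagaaccc, with 1 match on chromosome 5, at chr5:138464830-138464849 (hg38, plus strand, followed by CGG), 630 bases upstream of the RefSeq start of EGR1. The paper places the element it targeted farther upstream of EGR1 than this, and the difference was not examined. The 4 replicate 1 libraries lay on the opposite side of all others along the first principal component, so the SCF responses are also given with a term for replicate 1. Library totals were 23.5 to 29.1 megacounts for PBS and 28.4 to 32.04 for SCF, so depth moved partly with treatment. A gene is called, or passes the test, where its Benjamini-Hochberg adjusted p over all genes tested is under 0.05. All 12 erythroid marker genes were tested, and their summed level was 21417 to 24216 CPM in sgControl PBS, 20953 to 24142 in sgControl SCF, 23012 to 24159 in sgEGR1 PBS and 21764 to 23427 in sgEGR1 SCF. The 10 markers of other cell types summed to 34.9 to 54.8 CPM in the PBS libraries and 35.8 to 69.8 CPM in the SCF libraries. Of these, 5 had 0 counts in every library, MPO, CD3E, PF4 and FLT3 among them.

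**Figure D1:**
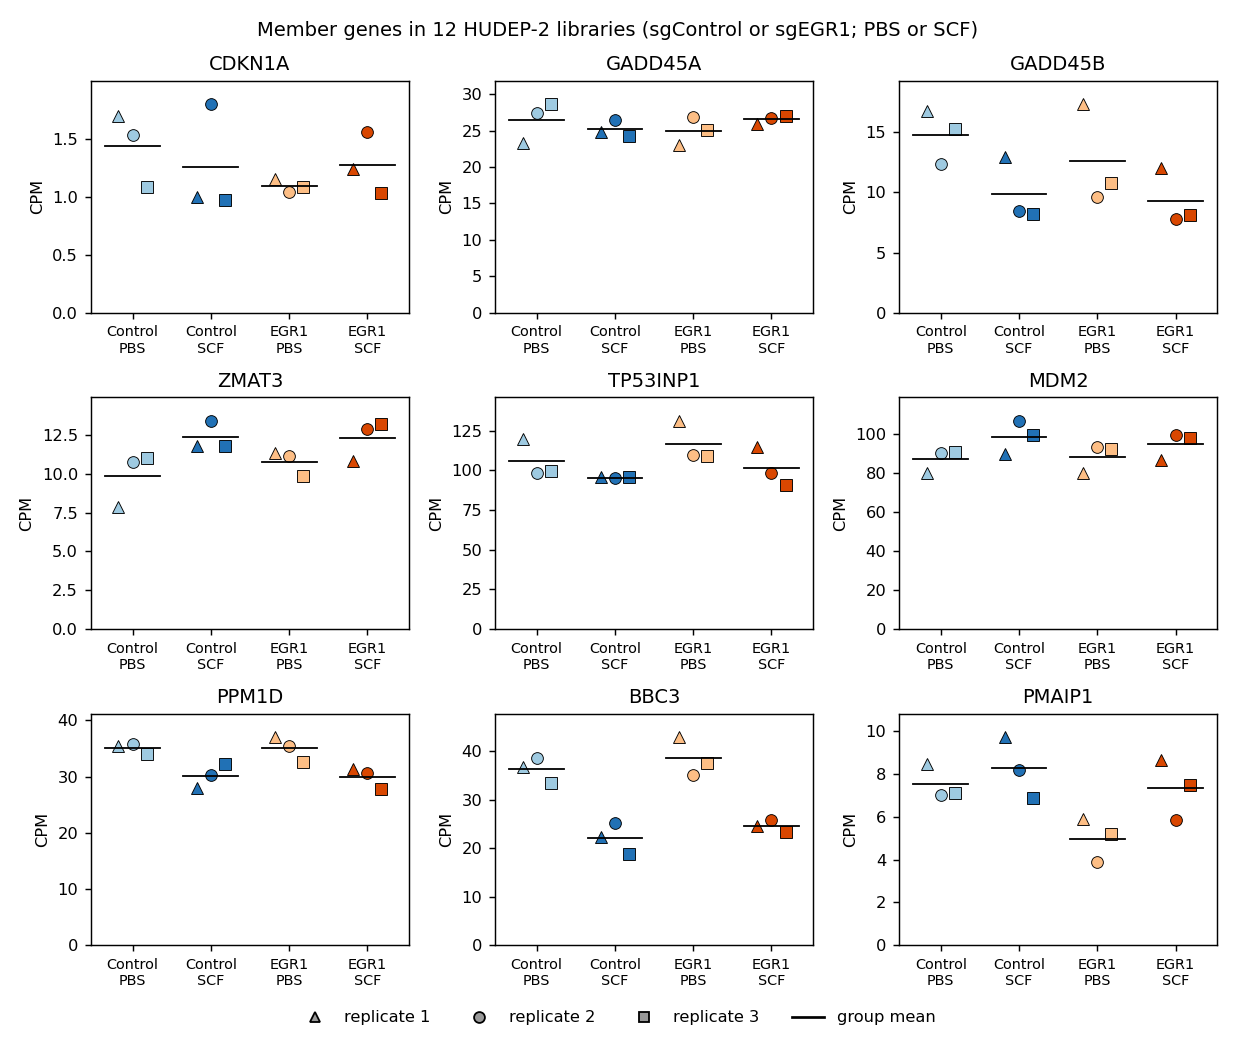
CPM of the 9 genes (y axis, from 0) in the 12 libraries, by guide and treatment (x axis), with 1 point per library, its shape giving the replicate and a bar at the group mean. BBC3 (33.4 to 43.0 CPM after PBS, 18.9 to 25.8 after SCF) and PPM1D (32.6 to 37.0 and 27.8 to 32.3) are the genes whose PBS and SCF points do not overlap, and replicate 1 (triangles) is the highest point of GADD45B in every group.

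The 9 genes were expressed at very different levels. Per kilobase of annotated exon (GENCODE v44), the mean level over the 12 libraries was 18.6 CPM per kb for TP53INP1, 13.4 for GADD45A, 11.1 for MDM2, 9.55 for BBC3, 5.45 for GADD45B, 3.46 for PPM1D, 3.21 for PMAIP1, 1.00 for ZMAT3 and 0.423 for CDKN1A. The lengths are unions of all annotated exons of a gene, not of the transcripts these cells express, so the order depends on the annotation. Neighbours in this order overlapped where their group means did. The group means of BBC3 ran from 6.97 to 12.1 CPM per kb and met those of MDM2, at 10.5 to 11.9, and those of PMAIP1, at 2.28 to 3.78, enclosed those of PPM1D, at 3.18 to 3.73. CDKN1A, the best known arrest gene of the set, was thus the lowest of the 9, at 27 to 54 counts per library.

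BBC3 encodes PUMA, a BH3-only protein that frees BAX and BAK to permeabilise mitochondria. It lies on chromosome 19 (RefSeq on GRCh38.p14, as for the genes that follow, 47220824 to 47232860, minus strand), and the microRNA genes MIR3190 and MIR3191 lie within its exons. In sgControl cells BBC3 was at 36.7, 38.6 and 33.4 CPM after PBS and at 22.4, 25.3 and 18.9 CPM after SCF. In sgEGR1 cells it was at 43.0, 35.2 and 37.6 CPM after PBS and at 24.7, 25.8 and 23.4 CPM after SCF. Every SCF library was below every PBS library, whichever guide it carried, which held in the lower direction for 2.47% of all genes tested. In RNA from whole cultures, fewer cells that express a gene and less RNA per cell cannot be told apart. In sgControl cells the gene fell with SCF by 0.71 ± 0.11 (SE) on the log2 scale, at an adjusted p of 0.0035 by edgeR. In sgEGR1 cells it fell by 0.65 ± 0.10, at an adjusted p of 0.0061 by edgeR. Averaged over both guides it fell 1.60-fold, with a 95% interval from 0.559 to 0.700 of the PBS level (edgeR adjusted p = 0.000156). The exact two-sided permutation test within guides gave 0.005, the smallest p this design allows. The average change was -0.68 ± 0.07 on the log2 scale with a term for replicate 1 (edgeR adjusted p = 1.7e-05). From replicates 2 and 3 alone it was -0.63 (edgeR adjusted p = 0.0015). Without the discordant library of the sgEGR1 SCF group, BBC3 fell by 0.61 in sgEGR1 cells (edgeR adjusted p = 0.0347).

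PMAIP1 encodes NOXA, the other BH3-only protein of the set, which binds MCL1. It lies on chromosome 18 (59899996 to 59904305, plus strand). PMAIP1 was at 8.45, 7.01 and 7.10 CPM in sgControl PBS and at 9.73, 8.20 and 6.85 in sgControl SCF. It was at 5.88, 3.88 and 5.20 CPM in sgEGR1 PBS and at 8.66, 5.83 and 7.46 in sgEGR1 SCF. The 3 sgEGR1 PBS libraries included the lowest values, and the PBS and SCF ranges overlapped for both guides. The average SCF response was 0.35 ± 0.13 on the log2 scale and did not pass the test (edgeR adjusted p = 0.141), nor did the responses in sgControl cells (0.13, edgeR adjusted p = 0.846) and in sgEGR1 cells (0.56, edgeR adjusted p = 0.172). PMAIP1 passed with a term for replicate 1, at 0.34 ± 0.09 (edgeR adjusted p = 0.0187). From replicates 2 and 3 alone it was 0.32 and did not (edgeR adjusted p = 0.135). The 2 BH3-only genes thus had average responses of opposite sign, and of the 2 only BBC3 passed the test without a replicate term.

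The PBS and SCF libraries of PPM1D also did not overlap. PPM1D encodes WIP1, a phosphatase that removes activating phosphates from p53 and from the kinases upstream of it, and lies on chromosome 17 (60600193 to 60666280, plus strand). In sgControl cells it was at 35.4, 35.8 and 33.9 CPM after PBS and at 27.9, 30.3 and 32.3 CPM after SCF. In sgEGR1 cells it was at 37.0, 35.4 and 32.6 CPM after PBS and at 31.3, 30.7 and 27.8 CPM after SCF. The highest SCF library, at 32.3 CPM, was just below the lowest PBS library, at 32.6. Averaged over both guides PPM1D fell 1.17-fold with SCF, by 0.22 ± 0.05 on the log2 scale (edgeR adjusted p = 0.0174; exact permutation test p = 0.005). In each guide alone the log2 change was of the same size, -0.22 and -0.23, and did not pass (edgeR adjusted p = 0.158 and 0.138). From replicates 2 and 3 alone the average change was -0.19 and just missed the threshold (edgeR adjusted p = 0.0519), and without the discordant sgEGR1 SCF library it was -0.19 and passed (edgeR adjusted p = 0.0485).

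MDM2 encodes the ubiquitin ligase that destroys p53, and lies on chromosome 12 (68808172 to 68850686, plus strand), where its exons overlap those of the carboxypeptidase M gene on the other strand by 133 bases, and a pseudogene and a long non-coding RNA besides. It was at 80.1, 90.3 and 91.1 CPM in sgControl PBS and at 89.9, 107.1 and 99.5 in sgControl SCF. It was at 80.0, 93.4 and 92.2 CPM in sgEGR1 PBS and at 86.9, 99.5 and 97.95 in sgEGR1 SCF. In each group replicate 1 was the lowest library, and the PBS and SCF ranges overlapped. The average change was 0.14 ± 0.06 on the log2 scale and did not pass (edgeR adjusted p = 0.181). With a term for replicate 1 the same change, 1.10-fold with an SE of 0.02 on the log2 scale, passed (edgeR adjusted p = 0.0015), as it did from replicates 2 and 3 alone (0.14, edgeR adjusted p = 0.0217). The average responses of the 2 genes that feed back on p53 were of opposite sign in these fits.

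CDKN1A encodes p21, which inhibits the cyclin-dependent kinases that drive entry into S phase, and lies on chromosome 6 (36676463 to 36687332, plus strand), sharing 146 bases with the non-coding RNA gene DINOL on the other strand. It was at 1.70, 1.54 and 1.09 CPM in sgControl PBS and at 1.00, 1.80 and 0.97 in sgControl SCF. It was at 1.15, 1.04 and 1.08 CPM in sgEGR1 PBS and at 1.24, 1.56 and 1.03 in sgEGR1 SCF. All 4 groups overlapped. The average change was 0.01 ± 0.20 on the log2 scale (edgeR adjusted p = 0.985), with a 95% interval from 0.746-fold to 1.37-fold. These libraries do not tell apart changes within that interval, which is not a limit of detection.

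GADD45A and GADD45B encode small proteins that bind and activate the kinase MTK1 upstream of p38 and JNK. GADD45A, on chromosome 1 (67685201 to 67688334, plus strand), ranged from 22.95 to 28.6 CPM after PBS and from 24.3 to 27.0 CPM after SCF. Its average change was 0.01 ± 0.06 on the log2 scale (edgeR adjusted p = 0.955), with a 95% interval from 0.922-fold to 1.10-fold.

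GADD45B, on chromosome 19 (2476127 to 2478257, plus strand), was at 16.8, 12.4 and 15.2 CPM in sgControl PBS and at 12.9, 8.47 and 8.17 in sgControl SCF. In sgEGR1 cells GADD45B was at 17.3, 9.65 and 10.8 CPM after PBS and at 12.01, 7.80 and 8.15 CPM after SCF. The PBS and SCF ranges overlapped, since the replicate 1 libraries after SCF were as high as some replicate 2 and 3 libraries after PBS. Replicates 2 and 3 ran from 9.65 to 15.2 CPM after PBS and from 7.80 to 8.47 CPM after SCF. How many of all genes were so apart in those libraries was not counted. The average change was -0.51 ± 0.18 on the log2 scale and did not pass (edgeR adjusted p = 0.103; exact permutation test p = 0.035), although DESeq2 called it at the same size (DESeq2 adjusted p = 0.0388). With a term for replicate 1 the change kept its size, -0.52, its SE narrowed to 0.08, and it passed (edgeR adjusted p = 0.00048), as it did from replicates 2 and 3 alone (-0.54, edgeR adjusted p = 0.0039).

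ZMAT3 encodes an RNA-binding zinc finger protein that regulates splicing and RNA decay downstream of p53, and lies on chromosome 3 (179017223 to 179072513, minus strand). It was at 7.84, 10.8 and 11.0 CPM in sgControl PBS and at 11.8, 13.4 and 11.8 in sgControl SCF, which did not overlap. In sgEGR1 cells it was at 11.3, 11.1 and 9.87 CPM after PBS and at 10.8, 12.9 and 13.2 CPM after SCF, which did. Its average change of 0.26 ± 0.09 on the log2 scale did not pass (edgeR adjusted p = 0.116). With a term for replicate 1 it was 0.26 ± 0.08 and passed (edgeR adjusted p = 0.0341), but without the discordant sgEGR1 SCF library the same fit did not call it (edgeR adjusted p = 0.0699). From replicates 2 and 3 alone it was 0.26 and passed (edgeR adjusted p = 0.0467).

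TP53INP1 encodes a cofactor that promotes the phosphorylation of p53 and also acts in autophagy. It lies on chromosome 8, where its exons overlap those of NDUFAF6 on the other strand by 225 bases. It was at 120.01, 98.2 and 99.8 CPM in sgControl PBS and at 95.7, 95.1 and 95.5 in sgControl SCF, which did not overlap. In sgEGR1 cells it was at 131.4, 109.8 and 109.1 CPM after PBS and at 114.9, 98.5 and 91.0 CPM after SCF, where the first SCF library exceeded 2 PBS libraries. The average change was -0.18 ± 0.07 on the log2 scale and did not pass (edgeR adjusted p = 0.152). With a term for replicate 1 it was -0.17 ± 0.04 and passed (edgeR adjusted p = 0.0070).

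Across the 9 genes, edgeR called 1 gene in sgControl cells, BBC3, where 2.89% of all genes tested were called and 0.775% were called lower. It called BBC3 again in sgEGR1 cells, where 2.59% were called and 0.788% were called lower. In the average response over both guides it called 2, BBC3 and PPM1D, both lower, where 9.03% of all genes were called and 3.45% were called lower. The median log2 change of the 9 genes was 0.01, against 0.00 for all genes tested, with 5 of the 9 above 0. PBS and SCF libraries did not overlap for 2 of the 9, against 6.90% of all genes. Within sgControl cells they did not overlap for 4 of the 9 (BBC3, PPM1D, TP53INP1 and ZMAT3), against 19.6% of all genes, and within sgEGR1 cells for 2 (BBC3 and PPM1D), against 21.2%. With a term for replicate 1 the count rose to 7 of 9, with 4 lower (BBC3, GADD45B, PPM1D and TP53INP1) and 3 higher (MDM2, PMAIP1 and ZMAT3), where 18.5% of all genes were called, 8.29% lower and 10.2% higher. In that fit 3 of the 9 were called in sgControl cells (BBC3 and GADD45B lower, MDM2 higher), where 8.32% of all genes were called, and 4 in sgEGR1 cells (BBC3, GADD45B and TP53INP1 lower, PMAIP1 higher), where 8.56% were called. Without the discordant library the same fit called 1 of the 9 in sgEGR1 cells, BBC3, where 4.92% of all genes were called. The other 3 did not pass there, with log2 changes of -0.43 for GADD45B (edgeR adjusted p = 0.0814), -0.16 for TP53INP1 (edgeR adjusted p = 0.159) and 0.47 for PMAIP1 (edgeR adjusted p = 0.0811). CDKN1A and GADD45A were called in none of these. In the average response, the count with that term and without the discordant library was 6, where 15.4% of all genes were called, and from replicates 2 and 3 alone it was 5, where 11.3% were called. The average log2 changes differed between the fits with and without the replicate 1 term by less than their SEs, and the SEs of MDM2, GADD45B and TP53INP1 narrowed most. The SCF libraries tended to be deeper than the PBS libraries, with the totals given above, and whether depth had a part in these differences was not tested.

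**Figure D2:**
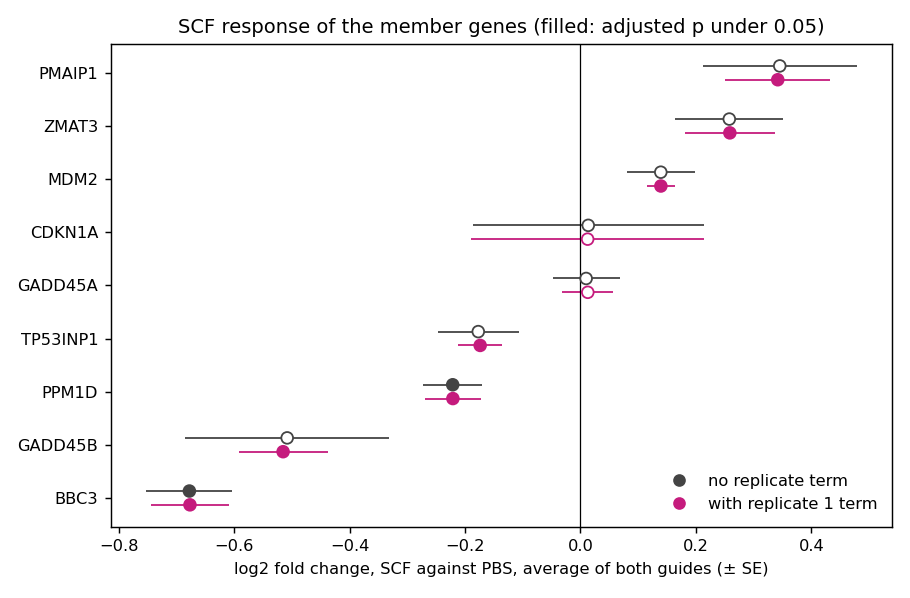
Log2 fold change of SCF against PBS averaged over both guides (x axis) for the 9 genes (y axis), with bars of 1 SE, from the fit without a replicate term (grey) and with a term for replicate 1 (pink). Filled points passed an adjusted p of 0.05, 2 genes in grey and 7 in pink, from BBC3 at -0.68 to PMAIP1 at 0.34, and the positions of the points barely differ between the fits.

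No gene of the 9 differed between the guides past the threshold. Between sgEGR1 and sgControl cells edgeR called 0 of the 9 after PBS and 0 after SCF, where 0% of all genes were called. EGR1 itself was thus not called either. Its PBS libraries did not overlap, at 0.977 to 2.04 CPM in sgEGR1 and 5.99 to 10.9 CPM in sgControl cells. The absence of a call therefore does not show that a gene was alike between the guides. DESeq2 called 20 and 5 genes, none of the 9 among them. Of all 15492 genes tested, 715 and 361 had an unadjusted p under 0.05. In this edgeR fit without a replicate term, each is a share below the 0.05 that such a threshold gives where nothing differs. With the replicate number as a block they were 1585 and 875, each a share above 0.05. Of the 9, PMAIP1 alone had an unadjusted p under 0.05 after PBS, and 0 had one after SCF. With the replicate block these numbers of the 9 were 3 and 0, beside the 1585 and 875 of all genes. With the replicate number as a block, since same-numbered libraries of the guides deviated together, 2 genes were called in each comparison and again none of the 9. Without the discordant library edgeR called 1 gene after PBS and 2 after SCF. With the replicate 1 term and without that library it called 51 and 38 genes. None of the 9 was among them. PMAIP1 came nearest. Its sgEGR1 PBS libraries, at 3.88 to 5.88 CPM, all lay below its sgControl PBS libraries, at 7.01 to 8.45 CPM, which held in the lower direction for 4.66% of all genes. The difference was -0.60 ± 0.19 on the log2 scale and did not pass after adjustment (edgeR adjusted p = 0.999; exact permutation test p = 0.1, the smallest that 3 against 3 libraries allow). With the replicate block it was -0.60 and again did not pass (edgeR adjusted p = 0.169). After SCF the log2 difference in PMAIP1 was -0.17 ± 0.19 (edgeR adjusted p = 1.00), and -0.19 without the discordant library.

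The difference between the SCF responses of the guides was tested as an interaction, sgEGR1 minus sgControl. edgeR called 0 of the 9 genes and 0 of all genes, and DESeq2 called 4 genes, again none of the 9. Of all genes tested, 306 had an unadjusted p under 0.05, again a share below the 0.05 given where nothing differs. Of the 9, 0 had an unadjusted p under 0.05. The 12 early response genes tested, EGR1 among them, had interactions of 0.06 to 1.56, all above 0 and none called. From all 12 libraries, the estimated log2 response of EGR1 was thus not smaller in sgEGR1 cells, although its level there was lower after PBS. For BBC3 the interaction was 0.06 on the log2 scale with a 95% interval from -0.26 to 0.38, and for PPM1D it was -0.01 with an interval from -0.23 to 0.21. For PMAIP1 it was 0.42 with an interval from -0.16 to 1.00, and for CDKN1A it was 0.42 with an interval from -0.45 to 1.30. These intervals rest on all 12 libraries, the discordant one included, and do not show that the responses were alike. The interval of BBC3 stays below the size of its response in sgControl cells (0.71), while those of PMAIP1 and CDKN1A reach 2.01-fold and 2.46-fold. Without the discordant library edgeR called 0 of the 9 and 2 of all genes for the interaction. With each library left out in turn, the interaction ran from -0.04 to 0.16 for BBC3, from 0.27 to 0.56 for PMAIP1 and from 0.26 to 0.77 for CDKN1A.

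**Figure D3:**
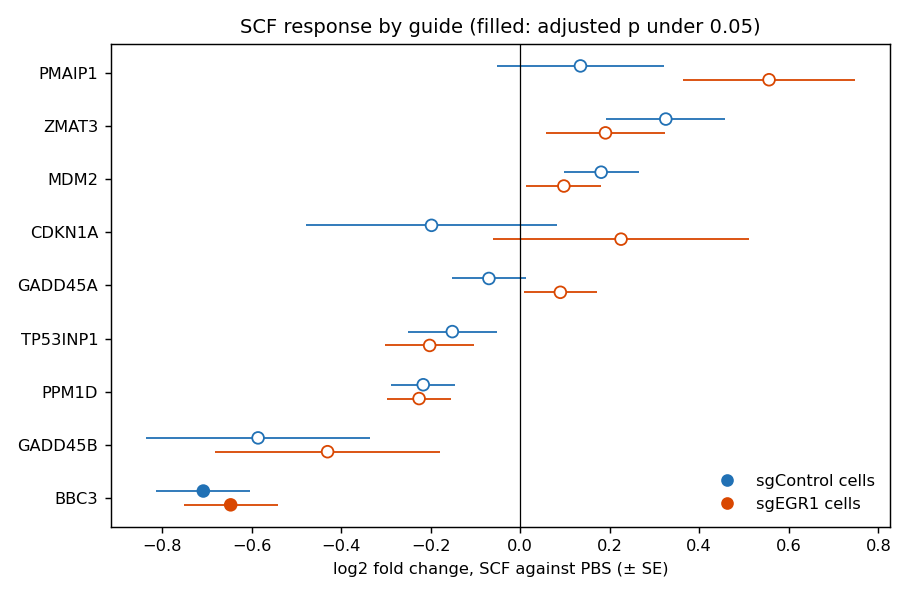
Log2 fold change of SCF against PBS (x axis) for the 9 genes (y axis) in sgControl cells (blue) and sgEGR1 cells (orange), with bars of 1 SE and filled points where the adjusted p was under 0.05. BBC3 is the gene filled in both, at -0.71 and -0.65, and the points of PMAIP1 (0.13 and 0.56) and CDKN1A (-0.20 and 0.23) lie farthest apart.

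The replicate 1 libraries differed from replicates 2 and 3 in 4 of the 9 genes in a fit with the group as a term, 3 higher and 1 lower, where 26.6% of all genes tested were called, 13.1% higher and 13.4% lower. GADD45B was 1.48-fold higher in replicate 1 (0.57 ± 0.08 on the log2 scale, edgeR adjusted p = 0.000195). PMAIP1 was 1.27-fold higher (0.35 ± 0.09, edgeR adjusted p = 0.0163) and TP53INP1 1.15-fold higher (0.21 ± 0.04, edgeR adjusted p = 0.0022). MDM2 was lower, by 0.19 ± 0.03 on the log2 scale (edgeR adjusted p = 0.000141). The PMAIP1 call was lost without replicate 1 of sgControl SCF (edgeR adjusted p = 0.066) or of sgEGR1 SCF (0.057). BBC3 and PPM1D, the genes called for SCF, differed by 0.08 and 0.02 and were not called (edgeR adjusted p = 0.484 and 0.806). For GADD45B the replicate 1 difference was thus of about the size of its SCF response and opposite in sign. The early response gene FOS moved with replicate 1 too, at 16.7 to 146.3 CPM in replicate 1 and 2.53 to 15.5 CPM in the other libraries, and its part in these differences was not tested. In the same fit 7 of the 12 early response genes tested were called, 6 higher and 1 lower in replicate 1, and 4 of the 12 erythroid markers, 1 higher and 3 lower, with changes down to -1.01 on the log2 scale. Of the 10 markers of other cell types 2 were tested, and both were lower in replicate 1, PTPRC at -0.38 and ITGA2B at -0.93. Their part was not tested either.

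**Figure D4:**
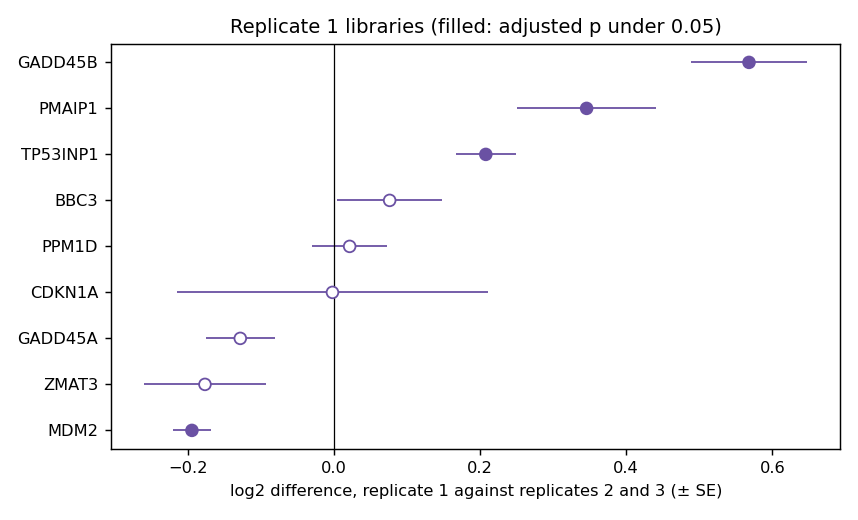
Log2 difference of replicate 1 from replicates 2 and 3 (x axis), adjusted for group, for the 9 genes (y axis), with bars of 1 SE and filled points where the adjusted p was under 0.05. GADD45B (0.57), PMAIP1 (0.35) and TP53INP1 (0.21) are filled above 0 and MDM2 (-0.19) is filled below 0.

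Genes whose pattern over the 12 libraries was most like that of the called members are named as a description, with Pearson's r of log2 CPM over 12 libraries that share the same groups and the same replicate 1 difference. For BBC3 they were UBALD2 (r = 0.974) and DEDD2 (r = 0.973), and for PPM1D they were PPOX (r = 0.964) and ZNF19 (r = 0.958). For CDKN1A, with its low counts, they were NSMCE4A (r = 0.825) and GLT8D2 (r = 0.764). UBALD2, DEDD2, PPOX and ZNF19 were each called lower with SCF themselves.

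Of 32 other p53 target genes, 30 were tested and 7 were called in the average SCF response, 5 higher and 2 lower, with a median log2 change of 0.02, where 9.03% of all genes were called. The called genes of highest change were PLK3, a polo-like kinase of the stress response, and AEN, a nuclease that acts in cell death. PLK3 was at 1.15 to 1.79 CPM in the PBS libraries and 3.96 to 5.57 CPM in the SCF libraries, a log2 change of 1.69 ± 0.15 (edgeR adjusted p = 2.9e-05). AEN was at 14.2 to 19.5 CPM after PBS and 29.9 to 37.7 CPM after SCF, a log2 change of 1.00 ± 0.09 (edgeR adjusted p = 2.5e-05). The called genes of lowest change were PIDD1, a death-domain scaffold (-0.33 ± 0.07, edgeR adjusted p = 0.0165), and TP53I3, a quinone oxidoreductase (-0.22 ± 0.06, edgeR adjusted p = 0.0264). With the replicate 1 term 9 of the 30 were called, 5 higher and 4 lower, where 18.5% of all genes were called, 10.2% higher and 8.29% lower.

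**Figure D5:**
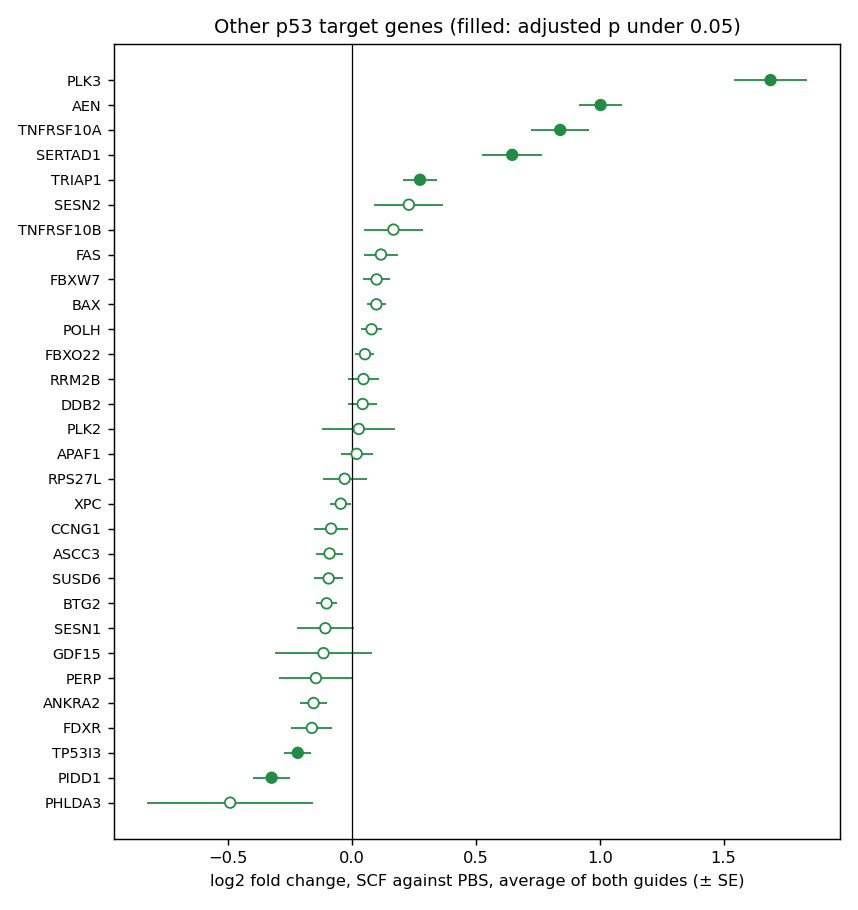
Log2 fold change of SCF against PBS averaged over both guides (x axis) for the 30 other p53 target genes tested (y axis), with bars of 1 SE and filled points where the adjusted p was under 0.05. The 7 filled points run from PIDD1 at -0.33 to PLK3 at 1.69, with 5 above 0 and 2 below.

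Genes downstream of p21, early response genes and erythroid markers were also counted. Of 12 cell cycle genes that the DREAM complex represses downstream of p21, 0 were called by edgeR on average, with 2 at an unadjusted p under 0.05, and 2 were called lower by DESeq2 and 2 by edgeR with the replicate 1 term. Of 12 early response genes tested, 7 were called higher, from JUNB at 0.68 and IER2 at 1.33 to EGR1 at 5.44 and EGR3 at 7.06 on the log2 scale. Of the 12 erythroid markers, 2 were called lower with SCF, SLC4A1 by 0.26 and EPOR by 0.14 on the log2 scale. DESeq2 called 4 lower and edgeR with the replicate 1 term called 6 lower. Beside these counts, edgeR called 9.03% of all genes tested, 3.45% lower, and with the replicate 1 term 18.5%, 8.29% lower. DESeq2 called 1791 of all genes, 745 of them lower.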

How the data were processed

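RNA-seq of 12 HUDEP-2 libraries (4 groups of 3) was analysed from 1 table of estimated counts per gene. Per the methods and labels, the authors used HISAT for alignment (hg38) and StringTie for the deposited estimated counts, which are scaled for neither depth nor length. The annotation release, the treatment of multi-mapping reads and the use of strand in counting are not given in the sources used here, and the labels and methods name different library kits, so genes that overlap a neighbour are uncertain. All values were whole numbers, and no per-sample column was left unused. The columns call the second construct by a guide code, which was read as sgEGR1, the one construct of the labels besides the scrambled control.

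The 9 genes, the gene lists and the tests were chosen with earlier results of these data known. Genes were filtered with filterByExpr (15492 kept) and compared by edgeR 4.0.16 (glmQLFTest, R 4.3.3) after TMM scaling, with 1 coefficient per group and Benjamini-Hochberg adjustment over all genes tested. A gene was called at an adjusted p under 0.05, with no minimum fold. The average SCF response is the mean of the responses in both guides. The exact permutation tests used log2 (CPM + 0.1). Alternatives were DESeq2 1.42.0, its size factors, no filter, a replicate block, a replicate 1 term, replicates 2 and 3 only, and each library left out. Scripts were tested on simulated data. Library totals were 23.5 to 32.04 megacounts, and intervals cover the spread between libraries. Replicates of each group differed by more than sampling noise, so each library was counted separately.

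Same-numbered libraries were checked for pairing by the correlation of their deviations from group means. For replicates 1, 2 and 3 it was 0.232, 0.103 and 0.119 between guides given PBS, and 0.269, 0.102 and 0.126 between guides given SCF, each over 0.1, so the blocked fit stands beside the guide results. Between treatments it was 0.272, 0.008 and 0.108 in sgControl and 0.230, 0.075 and 0.062 in sgEGR1 cells, not all over 0.1, so the numbers were not taken to pair those libraries, although the replicate 1 libraries deviated together. The named genes are the 9 members, the 2 genes most like each member called between groups and like CDKN1A, and from each list the called genes with the 2 highest and 2 lowest average SCF responses. FOS was added after its values were seen. Some genes of the lists are not reported here. Sequences were read from the RefSeq promoter table, hg38 and the study's guide list.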

Additional observations from a re-analysis of the deposited data

How the results depend on the processing

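BBC3 was called lower in all 19 alternatives of each of the 3 SCF comparisons, and CDKN1A and GADD45A were called in none of theirs. The number of the 9 genes called in the average response, 2, was 7 with the replicate block and with the replicate 1 term, 6 with that term and without sgEGR1 SCF replicate 3, 5 from replicates 2 and 3 only, and 2 to 3 with 1 library left out. GADD45B was gained in the last case, without sgControl SCF replicate 1 (edgeR adjusted p = 0.0485), and by DESeq2 (adjusted p = 0.0388). In sgControl cells the number, 1, was 3 with the replicate block and with the replicate 1 term, also without sgEGR1 SCF replicate 3, and 2 from replicates 2 and 3 only. In sgEGR1 cells the number, 1, was 4 with the replicate block and with the replicate 1 term, 1 with that term and without sgEGR1 SCF replicate 3, and 2 from replicates 2 and 3 only. The cause was not tested. The replicate block moved no call of the 9 genes between guides.

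Over all genes, the 448 calls in sgControl cells became 759 with DESeq2, 1184 with the replicate block and 1289 with the replicate 1 term. They were 1186 with that term and without sgEGR1 SCF replicate 3. From replicates 2 and 3 only they were 575, and with 1 library left out 194 to 448. The 402 calls in sgEGR1 cells became 773, 1235, 1326 and 778 in the same order, 690 from replicates 2 and 3 only, and 176 to 428 with 1 library left out. The 1399 of the average response became 2799 with the replicate block and 2868 with the replicate 1 term. They were 2442 with that term and without sgEGR1 SCF replicate 3, and 1748 from replicates 2 and 3 only. With 1 library left out they were 1032 to 1408. The 0 calls between guides after PBS became 20 with DESeq2, 1 without the filter, 2 with the replicate block, 4 with the replicate 1 term, 51 with that term and without sgEGR1 SCF replicate 3, 3 from replicates 2 and 3 only, and 0 to 1 with 1 library left out. The 0 after SCF became 5 with DESeq2, 2 with the replicate block, with the replicate 1 term and from replicates 2 and 3 only, 38 with that term and without sgEGR1 SCF replicate 3, and 0 to 2 with 1 library left out. The 0 of the interaction became 4 with DESeq2, 2 from replicates 2 and 3 only and 2 with the replicate 1 term without sgEGR1 SCF replicate 3, and 0 to 2 with 1 library left out.

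No value that changed sign had passed the test. From replicates 2 and 3 only, CDKN1A was at 0.080 in sgControl cells, against -0.20 from all replicates, and at -0.11 between guides after SCF, and GADD45A was at -0.045 in the average response. With the replicate block CDKN1A was at -0.0071 in the average response. With 1 library left out, the average response ran from -0.16 to 0.092 for CDKN1A and from -0.029 to 0.040 for GADD45A, the guide difference after SCF from -0.15 to 0.36 for CDKN1A, the interaction from -0.042 to 0.16 for BBC3, and the replicate 1 difference from -0.14 to 0.15 for CDKN1A and from -0.015 to 0.081 for PPM1D. Depth limits CDKN1A most, at 27 to 54 counts.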
